A study of Mus musculus with 6 samples.

Results

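The 40 genes described here make the machinery that produces ribosomes: the RNA polymerase I subunits and factors, and the nucleolar proteins that modify, cut and fold ribosomal RNA. They were chosen by gene symbol, and all 40 were found among the 21912 gene symbols of the deposited mRNA table, with the transcripts of a symbol summed. The RNA came from cultured mouse macrophages in 6 libraries, 3 with a control title (control 1 to 3) and 3 titled M (M 1 to 3). The series concerns oxidised low-density lipoprotein (ox-LDL), a lipoprotein that macrophages take up in large amounts to become foam cells, filled with lipid. M was read as the ox-LDL group because only the C titles say control. The RNA protocol is worded alike for all 6 libraries and describes every one as induced by ox-LDL, so this reading is uncertain. The sources used here give no dose, time, strain or source of the macrophages, and do not say whether replicates were separate cultures. The p-values therefore rest on differences between libraries of a group that could be technical only.

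Ribosome production starts in the nucleolus, where RNA polymerase I copies the ribosomal DNA into a long precursor RNA. Small nucleolar ribonucleoproteins (snoRNPs) then modify that precursor, guided by small nucleolar RNAs, and sequential assembly complexes cut it and fold it with ribosomal proteins into the 40S and 60S subunits. The pathway is among the best known targets of the transcription factor MYC and of mTOR signalling, and it usually runs high in proliferating cells. The ribosomal RNA itself was not measured here, only mRNA and long non-coding RNA.

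Levels are FPKM as the authors deposited them, a measure that divides fragments by transcript length and library size. Differences are given as M minus control after log2(FPKM + 1), a scale on which changes of low genes come out too small, and a gene is called at a Benjamini-Hochberg adjusted p under 0.05 in limma's moderated test over the whole table. Of 10390 genes that averaged 1 FPKM or more, 43.1% were called, 21.2% higher in M and 21.9% lower. At an unadjusted p under 0.05 in limma, 2640 of the 10390 were higher and 2715 lower. The unadjusted counts of gene lists given below are to be read beside these. Correlations between libraries over all tested genes were 0.990 to 0.993 within groups and 0.961 to 0.968 between them. Macrophage identity markers summed to 5878 to 6293 FPKM in the controls and 7601 to 7886 in M. Marker lists of neutrophils, T and NK cells, B cells, dendritic cells, mast cells, fibroblasts, endothelial, epithelial and erythroid cells summed to at most 3.82 FPKM in any library. The mast cell and epithelial markers were listed at 0 throughout, as were 5 of the 8 neutrophil and 5 of the 7 T and NK cell markers. The neutrophil markers summed to 0 to 0.191 FPKM in control and 0.541 to 0.930 in M, the T and NK cell markers to 2.19 to 2.64 and 3.63 to 3.82, and the dendritic cell markers to 2.71 to 3.64 and 1.65 to 2.09. The part of these cells in the results was not tested. Control 2 stood apart from controls 1 and 3 in single genes and in the summed cytosolic ribosomal protein genes (40680 FPKM against 44936 and 44735). Gapdh was 33.4 FPKM there against 9.32 and 11.2, and 7.60, 8.98 and 7.85 in M 1 to 3. It was low in every library beside Pkm, at 1462, 1545 and 1518 FPKM in control and 2082, 2009 and 2014 in M. The cause was not tested, and how reads shared between genes were assigned is not stated for any gene. The members' deviations from the control mean had an SD of 0.112 (log2) in control 2 against 0.0610 and 0.0683. Over all tested genes that SD was 0.112 in control 2 against 0.109 and 0.108, so control 2 did not stand out there.

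The ribosome production genes changed by small amounts and in both directions. Of the 40 genes, 39 were tested, 5 rose, 10 fell and 24 were not called. With each library rescaled to the same FPKM sum the split was 7 higher and 9 lower. The share called, 38.5%, was close to the 43.1% of all tested genes, with 12.8% higher and 25.6% lower. Log2 fold changes ran from -0.50 for Npm1 to 0.27 for Wdr75, and none reached 2-fold, against 258 of all 10390 tested genes. The median over the 39 was -0.04, beside -0.01 over all tested genes, and the median absolute change was 0.11 beside 0.16. M lay wholly above the controls in 9 of them and wholly below in 12, where 27.6% and 28.1% of all tested genes did so (55.7% in either direction). In bulk RNA, fewer cells of a type and less RNA per cell cannot be told apart, and FPKM show only a gene's share of the RNA.

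By role, with no test between roles, the 5 that rose, Wdr75, Pno1, Nop14, Ltv1 and Utp15, all belonged to the small subunit group. The 10 that fell included Polr1c, Ubtf and Taf1d of the polymerase I group, and Nop56, Nhp2 and Dkc1 of the snoRNPs. The rest of the falls were Npm1 of the abundant nucleolar proteins, Utp3 and Nob1 of the small subunit group, and Rrp1b of the large subunit group. Rrp1b passed the filter through its control level alone, and with a minimum mean of 5 FPKM 9 fell. Leaving out each library in turn, 7 of the 15 calls held throughout (Ubtf, Taf1d, Nop56, Nhp2, Nob1, Utp3 and Wdr75). Wdr75 was the single rise among them. Without M 2, M 3 or control 1, 1 of the 39 was called higher, and without M 2, 6 were called lower. Rrp12, an export factor of the 40S precursor, lay below the filter at 0.494, 0.614 and 0.486 FPKM in controls 1 to 3 and 0.564, 0.611 and 0.621 in M 1 to 3, and was not tested.

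**Figure D1:**
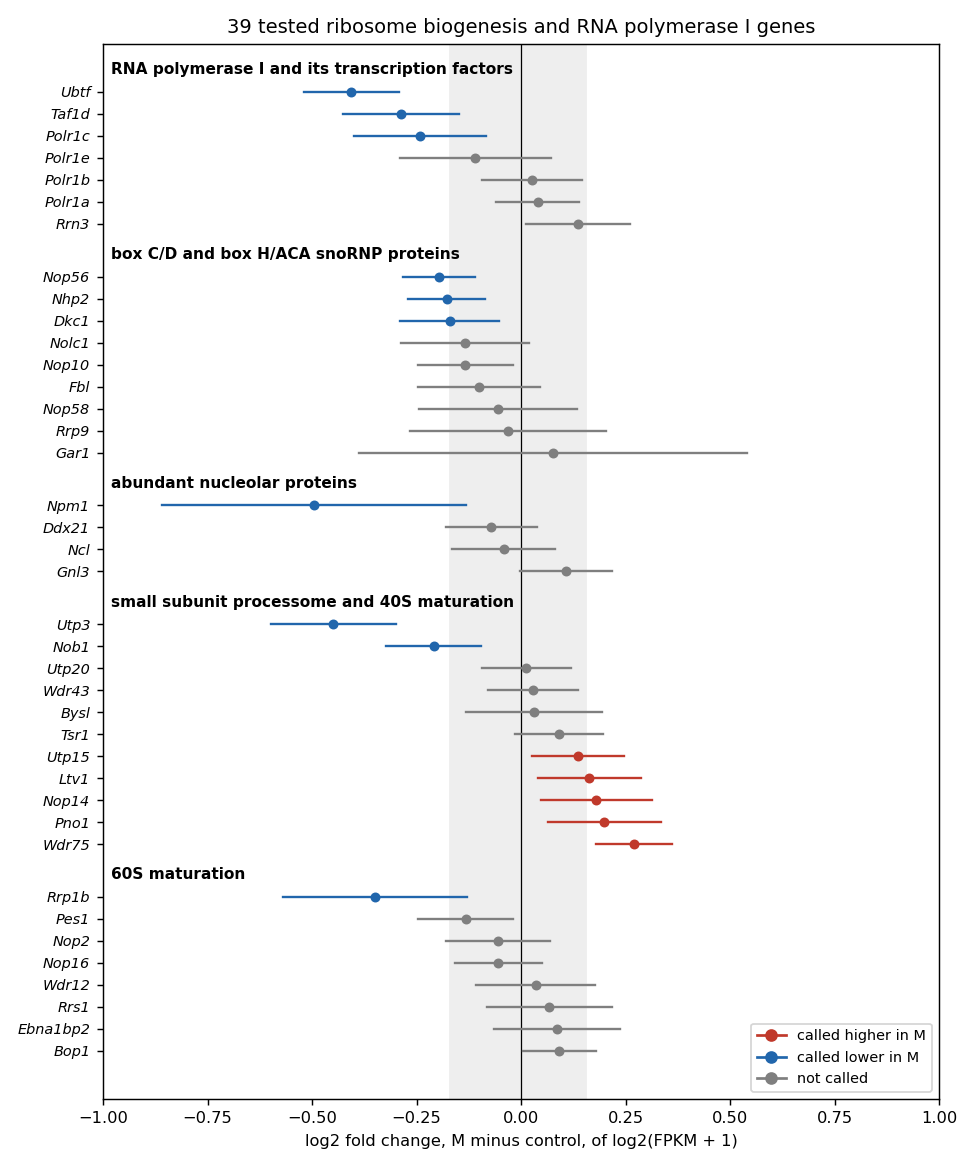
Log2 fold change of M against control (horizontal axis, log2(FPKM + 1) scale, 3 libraries a group) with 95% confidence intervals for the 39 tested ribosome production genes, grouped by role, and the shaded band spanning the interquartile range of all tested genes. The 5 called rises lie in the small subunit group and the 10 called falls lie in all 5 roles, with changes between -0.50 and 0.27 over the 39 genes. In the large subunit group the only fall is Rrp1b, which passed the filter through its control level alone.

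The RNA polymerase I group, summed over its 7 genes, stood at 168 to 172 FPKM in the controls and 146 to 151 in M. Of the 7, 3 fell and 0 rose by limma, with 1 higher and 3 lower at an unadjusted p under 0.05. The median was -0.11. Ubtf (ENSMUSG00000020923), the HMG-box protein that binds along the ribosomal DNA and keeps it open for polymerase I, was 35.6, 35.2 and 36.0 FPKM in controls 1 to 3 and 24.9, 27.6 and 27.6 in M 1 to 3. All M libraries lay below all controls. The log2 fold change of -0.41 ± 0.0489 (SE, limma, adjusted p = 4.17e-04) was the largest of the group. Taf1d (ENSMUSG00000031939), a subunit of the promoter selectivity factor SL1, was 51.5, 45.6 and 52.9 FPKM in control and 41.5, 39.3 and 41.4 in M. It fell without overlap, with a log2 fold change of -0.29 ± 0.0597 (SE, limma, adjusted p = 0.00600).

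Polr1c (ENSMUSG00000067148), a subunit shared by polymerases I and III, was 39.9, 38.6 and 37.9 FPKM in control and 36.6, 31.0 and 30.7 in M. M 1 lay close to the controls and the other two M libraries well below. Its log2 fold change was -0.24 ± 0.0679 (SE, limma, adjusted p = 0.0224). The call was lost without control 1 (0.0710), control 2 (0.0509), M 2 (0.0768) or M 3 (0.0731). The catalytic subunits showed no such fall. Polr1a (ENSMUSG00000049553), the largest subunit, was 12.5, 13.0 and 12.9 FPKM in control and 13.2, 13.3 and 13.0 in M. Polr1b (ENSMUSG00000027395), the next largest, was 10.03, 10.6 and 9.76 FPKM in control and 10.1, 10.6 and 10.3 in M. Their log2 fold changes were 0.04 and 0.03, with 95% intervals of -0.06 to 0.14 and -0.09 to 0.15 (limma, adjusted p = 0.487 and 0.706).

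Polr1e (ENSMUSG00000028318), a peripheral subunit, was 4.21, 4.68 and 4.09 FPKM in control and 4.02, 3.57 and 4.23 in M. The groups overlapped, and the log2 fold change of -0.11 (95% interval -0.29 to 0.07) was not called by limma (adjusted p = 0.293). Rrn3 (ENSMUSG00000022682), the initiation factor TIF-IA that makes polymerase I competent to start and responds to growth signals, was 18.1, 20.4 and 18.8 FPKM in control and 20.5, 21.0 and 21.7 in M. Every M library was above every control, by a narrow margin over control 2. The log2 fold change of 0.14 ± 0.0537 (SE) missed the threshold in limma (adjusted p = 0.0743) and passed it without control 2 (0.18, adjusted p = 0.0258).

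The rest of the polymerase I machinery, listed separately, held 10 tested genes. Of these 4 rose and 0 fell by limma, the latter also at an unadjusted p under 0.05, and the median was -0.02. Baz2a, the large subunit of the nucleolar remodelling complex NoRC that silences ribosomal DNA, was 12.4, 12.6 and 12.4 FPKM in control and 16.3, 15.6 and 15.8 in M (0.33 ± 0.0422, SE, limma, adjusted p = 5.77e-04). Taf1b, another SL1 subunit, went from 16.4 to 19.9 FPKM on average (log2 fold change 0.27, limma, adjusted p = 0.00307), and the polymerase I subunit Twistnb from 18.3 to 21.0 (0.19, adjusted p = 0.0135). Taf1d and Taf1b, partners in SL1, were thus called in opposite directions. Znrd1, a small polymerase I subunit, went from 18.4 to 21.2 FPKM (0.19, limma, adjusted p = 0.0321), a call lost without control 1 (0.0534), control 2 (0.0881), M 1 (0.0875) or M 2 (0.0518). The Znrd1 call was also lost with no filter (0.0548) and with the most abundant transcript (0.222). Polr1d, the partner of Polr1c in polymerases I and III, was 51.2, 42.8 and 41.7 FPKM in control and 45.5, 39.2 and 38.8 in M. Its groups overlapped and it was not called (-0.13, limma, adjusted p = 0.298).

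**Figure D2:**
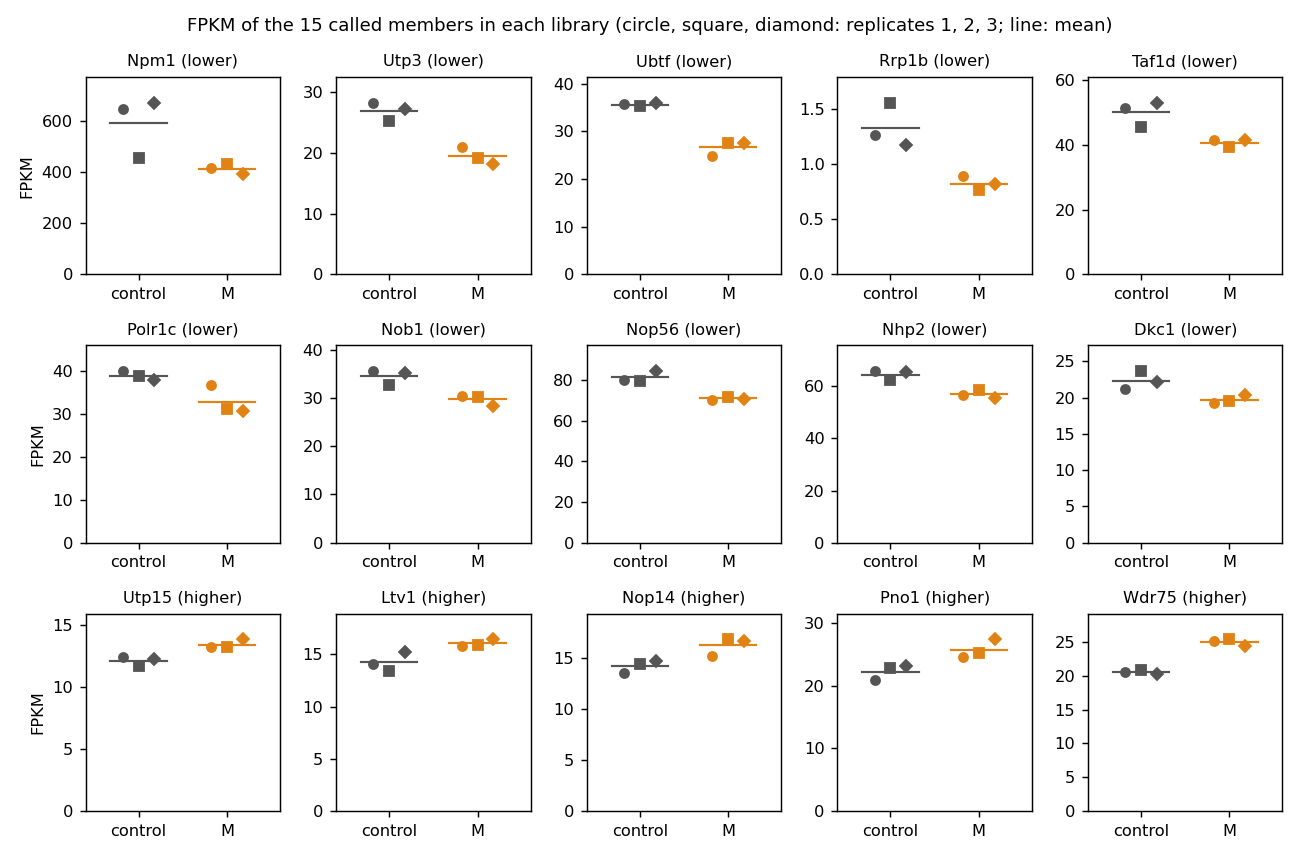
Level of the 15 called genes, in FPKM on the vertical axis, in each of the 3 control and 3 M libraries, 1 point a library, with the group mean as a line. Ubtf, Utp3 and Nob1 show M wholly below control, Wdr75 wholly above, and in Npm1 control 2 (456) lies near the M libraries (393 to 431).

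The 9 genes of the snoRNP group summed to 305 to 332 FPKM in the controls and 284 to 293 in M. Of the 9, 3 fell and 0 rose by limma, with 4 lower and 0 higher at an unadjusted p under 0.05, and the median was -0.13. The proteins fall into those of box C/D particles, which guide ribose methylation, and those of box H/ACA particles, which guide pseudouridylation. In the box C/D particle, Nop56 (ENSMUSG00000027405), a scaffold protein of the core, was 80.2, 79.7 and 84.5 FPKM in control and 70.5, 72.0 and 70.6 in M. The groups were far apart relative to their spread, with a log2 fold change of -0.20 ± 0.0371 (SE, limma, adjusted p = 0.00399).

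In the box H/ACA particle, Nhp2 (ENSMUSG00000001056), an RNA-binding core protein, was 65.8, 62.4 and 65.4 FPKM in control and 56.7, 58.6 and 55.5 in M. It fell without overlap (-0.18 ± 0.0394, SE, limma, adjusted p = 0.00825). Dkc1 (ENSMUSG00000031403), dyskerin, the pseudouridine synthase of the same particle, was 21.2, 23.7 and 22.1 FPKM in control and 19.3, 19.5 and 20.4 in M. Its log2 fold change was -0.17 ± 0.0507 (SE, limma, adjusted p = 0.0277). The call was lost without control 2 (0.0759), control 3 (0.0588), M 1 (0.0726) or M 2 (0.0818).

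The other 6 were not called. Fibrillarin (Fbl), the box C/D methyltransferase, had a log2 fold change of -0.10 (95% interval -0.25 to 0.05), Nop58, the partner of Nop56, -0.06, and the U3 snoRNP protein Rrp9 -0.03 at a low level of 1.38 FPKM in control. Nop10, a small H/ACA core protein, had -0.13 (limma, adjusted p = 0.0604) with M wholly below control, and Nolc1, a snoRNP chaperone, -0.14 (adjusted p = 0.135). Without control 2, Fbl (-0.17, limma, adjusted p = 0.0276), Nop10 (-0.17, adjusted p = 0.0356) and Nolc1 (-0.20, adjusted p = 0.0257) passed the threshold. Gar1, the remaining H/ACA core protein, was 15.5, 9.90 and 16.9 FPKM in control and 15.2, 14.3 and 14.2 in M, and its low control 2 left a wide interval of -0.39 to 0.54. Among 11 other snoRNP assembly genes, 2 fell and 0 rose by limma, also 0 at an unadjusted p under 0.05. These were Ruvbl1, an ATPase of the assembly chaperone R2TP, from 23.2 to 19.8 FPKM (-0.22, limma, adjusted p = 0.00814), and Nhp2l1, the 15.5K protein of box C/D particles, from 51.3 to 44.3 (-0.21, adjusted p = 0.0108).

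Among the abundant nucleolar proteins, Npm1 (ENSMUSG00000057113), nucleophosmin, a nucleolar chaperone of histones and ribosomal proteins, was the most abundant of the 40 genes and had the largest change. It was 648, 456 and 672 FPKM in controls 1 to 3 and 418, 431 and 393 in M 1 to 3. M lay below every control, but control 2 was nearer to M than to the other controls. The log2 fold change was -0.50 ± 0.150 (SE, limma, adjusted p = 0.0382). Without control 2 it was -0.67 (limma, adjusted p = 1.77e-04). The call was lost without control 1 (0.113), control 3 (0.1003), M 1 (0.0912), M 2 (0.0747) or M 3 (0.112). Npm1 has many processed pseudogenes, and the sources used here do not say how reads shared with them were assigned.

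Npm1 also set the summed level of the 40 genes, which was 1465 to 1742 FPKM in control and 1371 to 1419 in M. Without Npm1 the sums were 1009 to 1070 and 978 to 995 FPKM. Gnl3, nucleostemin, a GTP-binding nucleolar protein, was 41.6, 40.3 and 43.3 FPKM in control and 45.1, 47.0 and 42.9 in M, overlapping and not called (0.11 ± 0.0473, SE, limma, adjusted p = 0.104). Ddx21, a helicase in polymerase I transcription and rRNA processing, was 64.3, 61.6 and 67.2 FPKM in control and 63.9, 60.4 and 59.3 in M (-0.07, 95% interval -0.18 to 0.04, limma, adjusted p = 0.256). Nucleolin (Ncl), which binds the precursor rRNA, averaged 83.8 FPKM in control and 81.3 in M, with a log2 fold change of -0.04 (95% interval -0.17 to 0.08, limma, adjusted p = 0.557).

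In the small subunit group rises and falls met, and the sum of the 12 genes stayed at 216 to 221 FPKM in the controls and 220 to 222 in M. Of the 11 tested, 5 rose and 2 fell, with a median of 0.09. Utp3 (ENSMUSG00000070697), known as Sas10, a protein of the small subunit processome that assembles on the precursor RNA, was 28.3, 25.3 and 27.3 FPKM in control and 21.1, 19.1 and 18.3 in M. It fell clear of the control range, with a log2 fold change of -0.45 ± 0.0639 (SE, limma, adjusted p = 9.59e-04). Wdr75 (ENSMUSG00000025995), a WD-repeat protein of the early processome subcomplex that also acts in polymerase I transcription, was 20.6, 21.0 and 20.2 FPKM in control and 25.2, 25.4 and 24.5 in M. It rose in all M libraries, with a log2 fold change of 0.27 ± 0.0391 (SE, limma, adjusted p = 0.00108).

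The enzyme and its partner at the last cut of 18S rRNA were called in opposite directions. Nob1 (ENSMUSG00000003848), the endonuclease that makes the 3' end of 18S rRNA, was 35.6, 32.8 and 35.2 FPKM in control and 30.5, 30.3 and 28.4 in M. It fell without overlap (-0.21 ± 0.0489, SE, limma, adjusted p = 0.0105). Pno1 (ENSMUSG00000020116), which binds the same site and keeps Nob1 from cutting early, was 20.9, 22.8 and 23.1 FPKM in control and 24.5, 25.1 and 27.4 in M. It rose (0.20 ± 0.0579, SE, limma, adjusted p = 0.0258), a call lost without control 1 (0.0810), M 2 (0.0525) or M 3 (0.0789).

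The other 3 rises were smaller. Nop14, a processome protein, averaged 14.2 FPKM in control and 16.2 in M (0.18, limma, adjusted p = 0.0355). Its call was lost without control 1 (0.111), control 2 (0.0629), M 2 (0.112) or M 3 (0.106). Ltv1, a late 40S assembly factor, averaged 14.2 FPKM in control and 16.1 in M (0.16, limma, adjusted p = 0.0396). Its call was lost without any library except control 3 (0.0654 to 0.113). Utp15, a subunit of the UTP-A complex, averaged 12.1 FPKM in control and 13.4 in M (0.14, limma, adjusted p = 0.0489), and its call was lost without any of the 6 libraries (0.0666 to 0.142). Tsr1 (0.09), Bysl (0.03), Wdr43 (0.03) and Utp20 (0.01) were not called, and in Tsr1, a late 40S factor, M still lay wholly above control.

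In the large subunit group, the 8 genes of 60S maturation summed to 141 to 145 FPKM in control and 138 to 146 in M, and 1 fell and 0 rose by limma, with 2 lower and 1 higher at an unadjusted p under 0.05. The median was -0.01, and 0.01 with quantile normalization. Rrp1b (ENSMUSG00000058392), a nucleolar protein of 60S maturation, was 1.26, 1.55 and 1.17 FPKM in control and 0.888, 0.765 and 0.816 in M. All M values lay below all controls (-0.35 ± 0.0943, SE, limma, adjusted p = 0.0190), and the call was lost without M 2 (0.0610). Without control 2 its mean fell below the filter of 1 FPKM, so Rrp1b was not tested there. With all libraries it passed that filter through its control level alone.

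Pes1 and Bop1 are partners in the PeBoW complex, which acts in the processing of 28S and 5.8S rRNA. Pes1 was 37.6, 37.96 and 38.5 FPKM in control and 37.0, 34.0 and 32.9 in M, wholly below. Its log2 fold change of -0.13 ± 0.0489 (SE) was not called by limma (adjusted p = 0.0605), and it passed without M 1 (-0.18, adjusted p = 0.0129). Bop1 was 22.1, 21.3 and 21.8 FPKM in control and 23.2, 23.2 and 23.3 in M, wholly above, and was not called either (0.09 ± 0.0373, SE, limma, adjusted p = 0.0822). Wdr12, the third PeBoW protein, had 0.03 (95% interval -0.11 to 0.18). The rRNA methyltransferase Nop2 (-0.05), Nop16 (-0.05), Rrs1 (0.07), which helps load the 5S RNP, and Ebna1bp2 (0.09) were not called, with groups overlapping in each.

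The wider ribosome biogenesis lists held 127 further tested genes. Of these 27 rose and 16 fell, 33.9% called beside 43.1% of all tested genes, with a median of 0.03. With the same FPKM sum per library 34 rose and 11 fell. Among 43 other 40S maturation genes, 13 rose and 6 fell (median 0.07), or 17 and 4 with the same FPKM sum per library. Riok3, an atypical kinase tied to 40S precursors, was 23.2, 22.0 and 23.3 FPKM in control and 33.9, 37.3 and 39.5 in M (0.67 ± 0.0599, SE, limma, adjusted p = 9.07e-05), a larger change than that of any of the 40 genes. Cirh1a, the UTP-A protein also called Utp4, went from 17.9 to 24.99 FPKM (0.46, limma, adjusted p = 2.27e-04), Esf1 from 10.1 to 13.8 (0.41, adjusted p = 7.26e-04) and the UTP-B protein Pwp2 from 8.36 to 10.5 (0.30, adjusted p = 0.00266).

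Among 48 other 60S maturation genes, 10 rose and 4 fell (median 0.04), or 13 and 2 with the same FPKM sum per library. The helicase Ddx24 was 35.5, 33.9 and 35.7 FPKM in control and 22.2, 23.6 and 23.6 in M (-0.58 ± 0.0440, SE, limma, adjusted p = 4.11e-05). Pak1ip1 went from 28.3 to 39.4 FPKM (0.46, limma, adjusted p = 7.24e-05), Eif6, which keeps the 60S subunit from joining early, from 43.3 to 58.4 (0.42, adjusted p = 6.80e-04), and the GTPase Gnl3l from 16.7 to 20.6 (0.29, adjusted p = 0.00108). The RNA exosome and other genes that trim and degrade precursor rRNA formed another list, in which 4 of 15 fell and 0 rose by limma. At an unadjusted p under 0.05 in limma, 7 of them were lower and 0 higher (median -0.15). The exonuclease Eri1 went from 17.4 to 14.1 FPKM (-0.29, limma, adjusted p = 8.59e-04), the catalytic Exosc10 from 24.3 to 19.7 (-0.29, adjusted p = 0.00137) and Exosc2 from 13.6 to 11.3 (-0.25, adjusted p = 0.00709). Skiv2l2, the exosome helicase, went from 25.5 to 22.9 FPKM (-0.15, limma, adjusted p = 0.0284), a call lost without control 1 (0.0736), control 3 (0.0900), M 2 (0.0888) or M 3 (0.0724). The Skiv2l2 call was also lost with the same FPKM sum per library (0.0570).

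**Figure D3:**
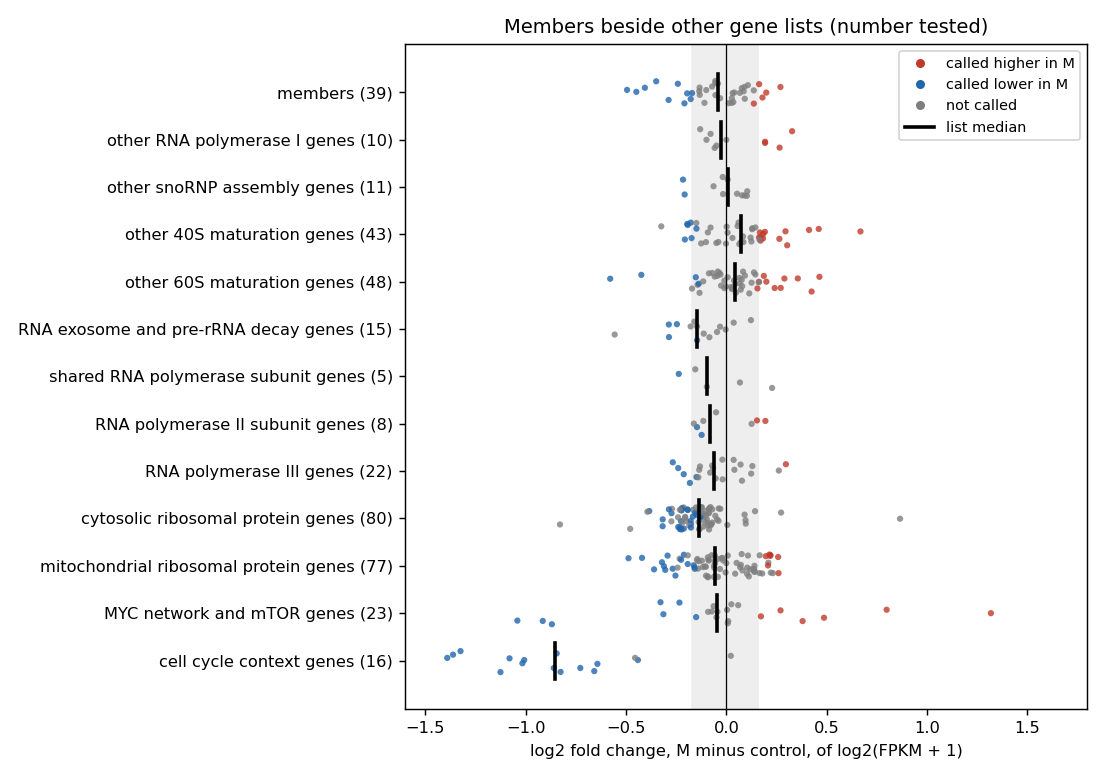
Log2 fold change of M against control (horizontal axis) for each tested gene of the ribosome production groups and of the related lists, 1 point a gene, with called genes coloured and the list median marked. The band is the interquartile range of all tested genes; most points lie near it, while the cell cycle genes lie far to the left (median -0.85) and Myc far to the right (1.32).

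The ribosomal protein genes, whose products the pathway assembles, gave a direction that depends on the scaling. Of 80 tested cytosolic ribosomal protein genes, 24 fell and 0 rose by limma, with 31 lower and 0 higher at an unadjusted p under 0.05, and the median was -0.13. Their summed level was 44936, 40680 and 44735 FPKM in controls 1 to 3 and 39475, 39773 and 37072 in M 1 to 3, so control 2 was close to M here as it was for Npm1. Rps24 went from 570 to 458 FPKM (-0.32, limma, adjusted p = 0.00177) and Rps9 from 681 to 558 (-0.29, adjusted p = 0.00346). The count of falls was 46 without control 2, 19 without M 1, 14 without control 3, 13 without M 2, 11 without control 1 and 8 without M 3. With quantile normalization 6 fell, 6 rose and the median was 0.05, so the direction of the family turned under that scaling. There Rps24 was -0.13 (limma, adjusted p = 0.0474) and Rps9 -0.01 (adjusted p = 0.821), so the call of Rps9 was lost. Rps9 was also not called by its most abundant transcript (-0.05, adjusted p = 0.799).

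Upstream of the pathway, Myc was 0.257, 0.475 and 0.336 FPKM in control and 1.92, 2.51 and 2.76 in M. It rose in all M libraries (1.32 ± 0.120, SE, limma, adjusted p = 9.71e-05) but stayed at a low level, and it passed the filter of 1 FPKM through M alone. Its partner Max averaged 34.4 FPKM in control and 34.5 in M (0.01, limma, adjusted p = 0.928). The MYC antagonist Mxd1 went from 3.17 to 2.55 FPKM (-0.23, limma, adjusted p = 0.0467), and that call was lost without control 1 (0.143), control 2 (0.0737), control 3 (0.0591), M 1 (0.105) or M 2 (0.134), with the same FPKM sum (0.0708) and with no filter (0.0553). Over the MYC network and mTOR list 6 of 23 rose and 7 fell (median -0.04). Eif4ebp1, the translation repressor that mTOR phosphorylates, went from 62.2 to 109 FPKM (0.80, limma, adjusted p = 2.46e-05). The sestrins, stress-induced inhibitors of mTOR complex 1, were called in opposite directions, Sesn1 from 27.2 to 14.5 FPKM (-0.87, adjusted p = 6.06e-05) and Sesn2 from 15.1 to 21.5 (0.49, adjusted p = 2.37e-04).

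Proliferation genes changed far more than the ribosome production genes. In the cell cycle list 14 of 16 fell and 0 rose by limma, none of them higher at an unadjusted p under 0.05 either, with a median of -0.85. The replicative helicase subunit Mcm4 was 25.3, 28.6 and 26.7 FPKM in control and 9.67, 9.56 and 9.59 in M (-1.39 ± 0.0527, SE, limma, adjusted p = 1.92e-06). Of 5 tested genes by which free 5S particles are sensed through p53, 1 rose and 1 fell. The fall, Rpl5 (-0.13, limma, adjusted p = 0.0422), lost its call without any of the 6 libraries (0.0595 to 0.118), with median-of-ratios scaling (0.0591) and with the same FPKM sum per library (0.104). Mdm2, the p53 ubiquitin ligase, went from 31.1 to 50.5 FPKM (0.68, limma, adjusted p = 1.27e-04).

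The hexamer CACGTG, the E-box that MYC with MAX can bind, was looked for in the 250 bases before the start of each gene in RefSeq promoter sequences of GRCm38.p6, where 35 of the 40 genes were found. It reads the same on both strands. It was present in 2 of the 35 (5.71%), Rrn3 and Nop2, beside 6.86% of all 27025 genes with a promoter and 10.4% of the 7977 of them that were tested. No called gene of the 40 with a promoter sequence held it in this window. Rrn3 holds it 215 and 48 bases before its start (chr16:13780449-13780698, plus strand) and Nop2 at 60 bases before (chr6:125131633-125131882, plus strand). Both promoters are shown, 5' to 3' with the hexamer in capitals, as the only ones of the 35 that hold it, a choice made after the values were seen.
Rrn3: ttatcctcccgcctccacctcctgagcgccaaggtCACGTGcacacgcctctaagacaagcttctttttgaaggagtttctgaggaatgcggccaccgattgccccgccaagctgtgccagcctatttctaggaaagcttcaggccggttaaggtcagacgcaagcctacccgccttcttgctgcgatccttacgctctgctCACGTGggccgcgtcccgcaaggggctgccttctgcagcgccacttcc
Nop2: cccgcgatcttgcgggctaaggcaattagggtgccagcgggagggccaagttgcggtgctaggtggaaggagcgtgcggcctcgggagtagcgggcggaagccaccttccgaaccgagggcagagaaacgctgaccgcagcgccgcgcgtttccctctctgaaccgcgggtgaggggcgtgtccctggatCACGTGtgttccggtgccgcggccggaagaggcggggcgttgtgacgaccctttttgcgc
Neither gene was called, and a match describes letters, not binding.

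The deposited rows are transcripts, and 87 belong to the 40 genes, with 22 genes holding 1 transcript. Of 58 tested transcripts, 2 were higher and 6 lower by limma, beside 9.18% higher and 9.56% lower among all 16851 tested. No gene had transcripts called both ways. Pno1, Utp15, Ltv1 and Rrp1b, with 1 transcript each, were called as genes. Fitted as transcripts, on the same values, they were not called (limma, adjusted p = 0.0800, 0.0927, 0.0964 and 0.163). The main transcripts of Dkc1 (0.0618) and Polr1c (0.0994) were not called either. In Nop56, called as a sum, 2 minor transcripts were called and the main one was not. Its most abundant, ENSMUST00000103198, was 38.8, 48.5 and 44.9 FPKM in control and 41.5, 38.2 and 40.7 in M and was not called (-0.13, limma, adjusted p = 0.397). ENSMUST00000028890 was 9.86, 10.7 and 9.66 FPKM in control and 6.73, 6.54 and 5.84 in M (-0.59 ± 0.0729, SE, limma, adjusted p = 0.00507). ENSMUST00000136621 went the same way (-0.55, limma, adjusted p = 0.0184), a call lost without any library except control 3 (0.0510 to 0.0649).

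In Taf1d the main transcript ENSMUST00000164079 was 38.6, 35.8 and 45.9 FPKM in control and 30.6, 26.5 and 28.6 in M (-0.47, limma, adjusted p = 0.0350). Its call was lost without M 1 (0.0596), M 2 (0.108), M 3 (0.1005) or control 1 (0.0875). The other Taf1d transcript, ENSMUST00000034415, had 0.30 (limma, adjusted p = 0.403). For Ubtf the split between transcripts was not stable between replicates. ENSMUST00000079589 was 17.7, 0.668 and 19.8 FPKM in controls 1 to 3 and 1.22, 14.1 and 15.1 in M 1 to 3. ENSMUST00000107119 was 13.9 FPKM in control 2 and 8.39 in M 1 and at most 0.134 elsewhere, so the same libraries were low in the former and high in the latter. The summed Ubtf level did not share this switch, and no tested Ubtf transcript was called alone. Npm1's ENSMUST00000093201 was 15.9 and 11.6 FPKM in controls 1 and 3 and listed at 0 in control 2 and all M libraries. Its main transcript ENSMUST00000075641 was 555, 395 and 583 FPKM in control and 345, 361 and 327 in M and was not called (-0.55, limma, adjusted p = 0.0723).

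**Figure D4:**
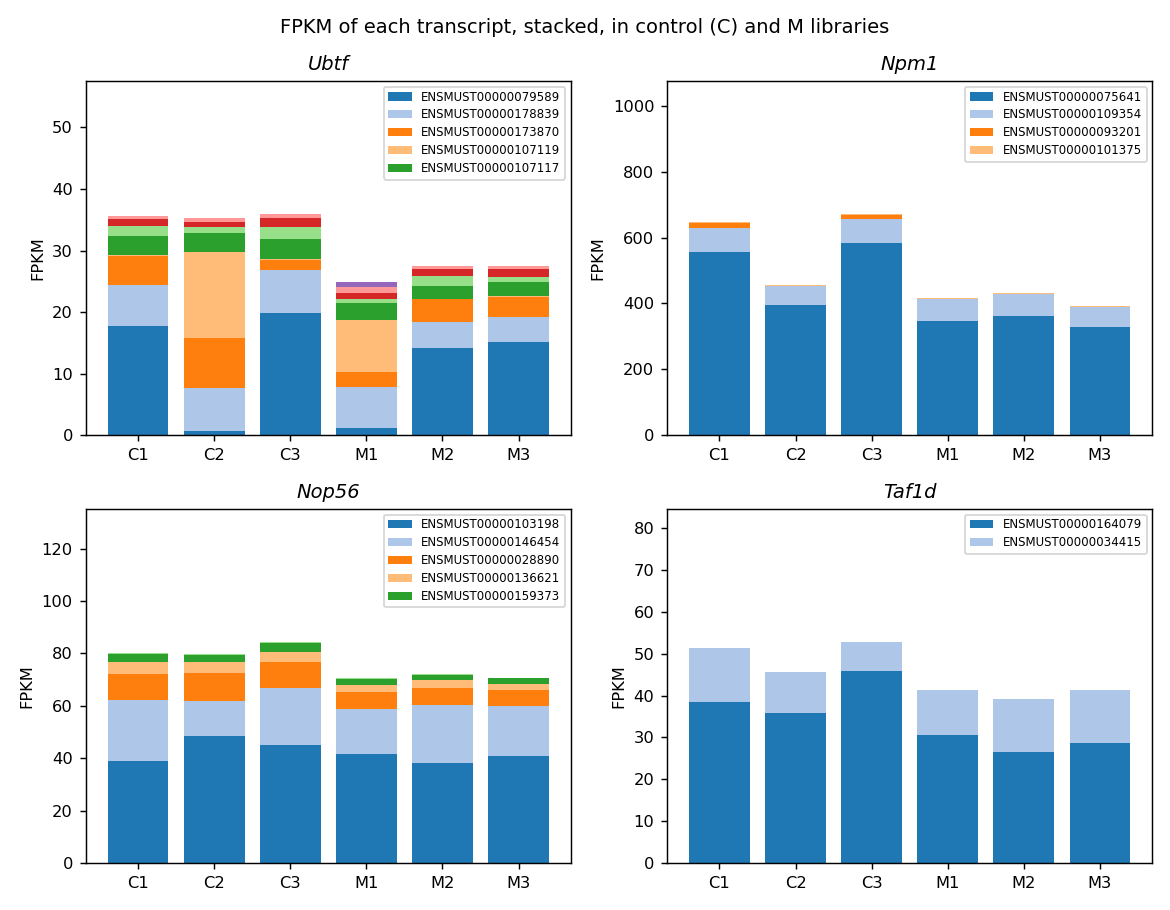
FPKM (vertical axis) of single transcripts of Ubtf, Nop56, Npm1 and Taf1d in each of the 6 libraries, with the 5 most abundant transcripts of a gene named. In Ubtf, control 2 and M 1 are low in ENSMUST00000079589 (0.668 and 1.22) and high in ENSMUST00000107119 (13.9 and 8.39).

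The guide RNAs of the snoRNPs are cut from introns of host genes, several of which are long non-coding RNAs. Of 22 host symbols listed, 12 were in the deposited lncRNA table, with 36 transcripts, all tested on the log2(FPKM + 0.1) scale. By limma 7 were lower and 0 higher, beside 7.12% lower and 3.49% higher among all 1488 tested lncRNA transcripts at the same adjusted threshold. At an unadjusted p under 0.05, 11 were lower and 2 higher, and the share over all lncRNA transcripts was not computed for that threshold. The median was -0.36 beside -0.08. The 7 belong to 6 hosts. Epb41l4aos (ENSMUST00000146010.2) was 27.4, 24.1 and 30.5 FPKM in control and 19.7, 18.6 and 17.9 in M (-0.54 ± 0.0960, SE, limma, adjusted p = 0.0164). Snhg5 (ENSMUST00000180563.8) was 22.7, 23.1 and 24.6 FPKM in control and 15.3, 18.5 and 16.8 in M (-0.47, limma, adjusted p = 0.0167). Both lay below the controls in every M library.

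Gas5 (ENSMUST00000161229.7), a host of many box C/D RNAs, was 23.9, 25.4 and 22.6 FPKM in control and 18.8, 17.7 and 13.8 in M (-0.52, limma, adjusted p = 0.0364). An Snhg4 transcript (ENSMUST00000185650.1, -0.52, limma, adjusted p = 0.0204), a further Snhg5 transcript (ENSMUST00000182872.2, -1.16, adjusted p = 0.0322) and an Snhg6 transcript (ENSMUST00000182819.7, -0.49, adjusted p = 0.0364) were also lower. The most abundant Snhg4 transcript, ENSMUST00000181664.7, was not called (-0.12, limma, adjusted p = 0.465), nor was ENSMUST00000185814.1 (-0.11, adjusted p = 0.604). Snhg1 (ENSMUST00000206155.1) was 80.0, 65.8 and 80.8 FPKM in control and 59.7, 57.9 and 53.05 in M (-0.40, limma, adjusted p = 0.0401). These calls rest on few libraries. The count of lower transcripts was 4 without M 1, 3 without M 2, 0 without M 3 (13 at an unadjusted p under 0.05), 2 without control 1, 5 without control 2 and 2 without control 3. It was also 0 in limma without trend and robust (8 at an unadjusted p under 0.05), and 3 with quantile normalization. Median-of-ratios scaling gave 3 lower and 1 higher.

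**Figure D5:**
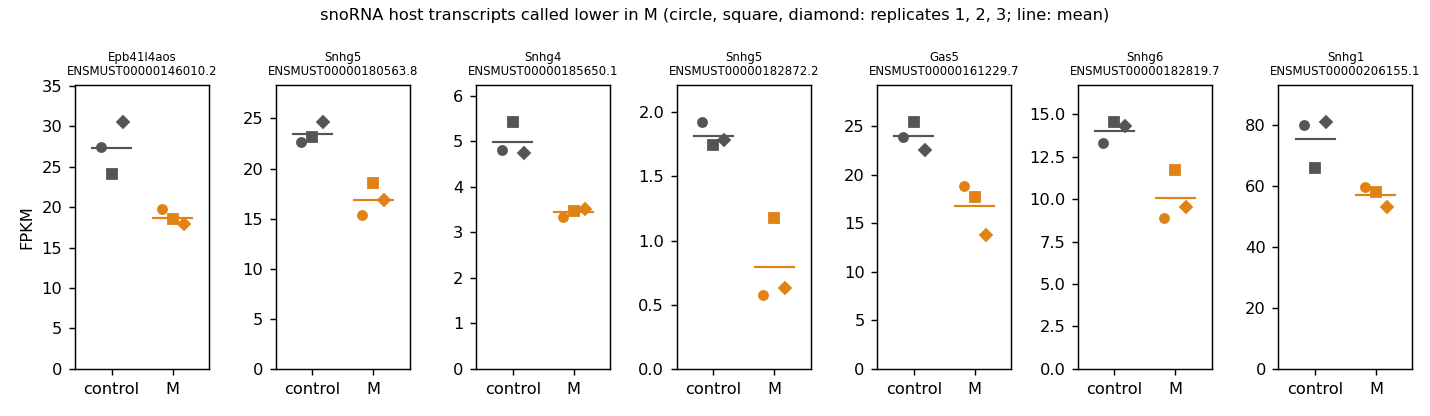
FPKM (vertical axis) in each of the 3 control and 3 M libraries for the snoRNA host lncRNA transcripts with the smallest adjusted p, 1 point a library and the group mean as a line. The M libraries lie below the controls in Epb41l4aos (17.9 to 19.7 against 24.1 to 30.5) and Gas5 (13.8 to 18.8 against 22.6 to 25.4).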

How the data were processed

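RNA of 3 control and 3 M libraries was analysed. Per the labels' protocols, Trizol RNA and a TruSeq RNA kit were used on total RNA. The authors deposited FPKM per transcript for mRNA and, in a separate table, for lncRNA. Per the submitters' processing notes the build was mm9, and the sources used here name no aligner, quantifier, filter or use of strand. FPKM hold no read counts, and depth could not be recovered from low values (the most frequent step ratio covered 3.45% to 7.10% of values), so depth is unknown and no counting interval is given.

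Transcripts were summed per symbol and tested with limma 3.58.1 in R 4.3.3 (trend and robust, two-sided) on log2(FPKM + 1) for genes averaging 1 FPKM or more, or log2(FPKM + 0.1) and 0.1 FPKM for lncRNAs, and Benjamini-Hochberg adjusted over each whole table. The test was checked on simulated data with independent errors and few changed genes. That check does not cover libraries in which many genes shift together. Members and lists were chosen with earlier results of these data known, so no list was tested as a set. Values in every library are given for the polymerase I group and the 3 largest changes of each other role. From other lists up to 4 called genes with the smallest adjusted p are named, plus Myc, Max, Mxd1 and Polr1d. Not all genes this rule names in the polymerase II and III, cell cycle and ribosomal protein lists are printed, and these lists are given mainly as counts. Replicates with the same number did not deviate together (r from -0.03 to 0.07), so no pairing was used. Alternatives covered the pseudocount, filter, scaling, variance model, replicate block, most abundant transcript and leaving out each library. Every member's 95% interval is limma's.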

Additional observations from a re-analysis of the deposited data

How the results depend on the processing

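The 5 members higher became 2 with no filter on low values and 3 with the most abundant transcript per gene, and 1 to 4 without 1 library. The 10 lower became 6 to 10 without 1 library. The members' median of -0.04 was -0.01 with a mean of at least 5 FPKM (-0.0148) and with the same FPKM sum per library (-0.0133), and -0.0574 to -0.00105 without 1 library. Among other ribosome biogenesis genes, 20 to 23 were higher and 10 to 18 lower without 1 library, with medians of 0.00889 to 0.04. Member transcripts, 2 higher and 6 lower, became 1 and 2 with the replicate block, and 1 to 2 higher and 2 to 7 lower without 1 library. The snoRNA host transcripts, 0 higher and 7 lower, became 1 and 3 with median-of-ratios scaling. Lower ones were 0 in limma without trend and robust, 3 with quantile normalization, 3 with the replicate block and 0 to 5 without 1 library.

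For the members, the block gave 4 higher and 9 lower, ending the calls of Npm1 (0.0651) and Utp15 (0.0762), and no member changed sign under it. It also ended the calls of Mxd1 (0.0796) and Rpl5 (0.0736), and brought Polr1d past the threshold (-0.13, limma, adjusted p = 0.0396). The same replicate numbers were not a known pairing. Taking the most abundant transcript ended the calls of Ubtf (-0.09, limma, adjusted p = 0.967), Nop56 (-0.13, 0.311), Polr1c (0.0615), Utp15 (0.0559) and Ltv1 (0.0598). With no filter Npm1 (0.0514), Nop14 (0.0549), Utp15 (0.0522) and Ltv1 (0.0561) missed the threshold, and with the same FPKM sum Dkc1 did (0.0826). Bop1 (0.12, 0.0410) and Gnl3 (0.14, 0.0368) passed with the same FPKM sum, and Pes1 (0.0355) and Ddx21 (0.0444) with quantile normalization. At the gene level, the calls of Taf1d, Nhp2, Nob1, Wdr75 and Utp3 held under every alternative listed. Fitted as transcripts, Nhp2 and Nob1, with 1 transcript each, were called (limma, adjusted p = 0.0237 and 0.0365). The Nhp2 transcript lost its call in 4 fits without 1 library (0.0680 to 0.0820), without trend and robust (0.0758) and with the block (0.106). The Nob1 transcript lost it in 5 such fits (0.0660 to 0.112), without trend and robust (0.0767), with the block (0.108) and with no filter (0.0659). No called member changed sign under any alternative run, while 7 that were not called did under at least 1, without a call (Gar1, -0.14 without control 2, Nop58, Wdr12, Wdr43, Utp20, Rrp9 and Bysl). Outside the members, signs were followed for a set of single genes and not for every called gene. Among the called genes of that set, signs reversed for Gtf3c5, from -0.24 to 0.45 with the most abundant transcript. With quantile normalization they reversed for Rpl5 (-0.13 to 0.0141) and Rpl6 (-0.19 to 0.0284). The cause was not tested. Depth is unknown, so how far it limits low genes such as Rrp12, Rrp9 and Rrp1b cannot be stated.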

Other observations

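The other polymerases and the mitochondrial ribosome were measured in the same libraries. Of 22 tested RNA polymerase III genes, 1 rose and 5 fell (median -0.06), or 3 and 3 with the same FPKM sum per library. Brf1, a subunit of the initiation factor TFIIIB, went from 16.5 to 13.5 FPKM (-0.27, limma, adjusted p = 0.00296). Of 8 polymerase II subunit genes, 2 rose and 2 fell (3 and 1 with the same FPKM sum), and Polr2a, the largest subunit, went from 46.1 to 51.4 FPKM (0.15, limma, adjusted p = 0.00968). Among 5 subunit genes shared by the polymerases, 1 was called, Polr2e, from 40.04 to 33.8 FPKM (-0.24, limma, adjusted p = 0.00293).

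Of 77 mitochondrial ribosomal protein genes, 7 rose and 14 fell (median -0.06), or 11 and 13 with the same FPKM sum. Mrpl23 was 46.6, 45.7 and 47.9 FPKM in control and 36.5, 36.8 and 38.3 in M (-0.32 ± 0.0384, SE, limma, adjusted p = 4.03e-04), and Mrpl9 went from 48.7 to 39.6 FPKM (-0.29, adjusted p = 7.96e-04).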
